A study of Mus musculus with 33 samples.

Results

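The 10 genes described here are Nat2, Klra7, Nexn, Glrb, Parm1, Fgl1, F9, Hic1, Trim45 and Oas3. They were picked from earlier results of these same arrays as candidates for genes whose level in a cloned mouse blastocyst goes with the cell that gave the nucleus. They are 10 of 27403 genes on the array and were read by 16 of its 41174 probes, found through the probe's gene name or an older synonym (Parm1 stands in the files as 9130213B05Rik). All 10 were among the 15676 genes tested, but a gene entered that set by being above background in at least 1 group, so passing is no support for a difference. Their levels in the clone and IVF groups chose them, and those levels are therefore given as a description, without a test. For these 10 genes p-values are given for comparisons of males with females, which the choice did not name. They come from the same embryos whose levels chose the genes, so they are not independent of the choice. How many passed a threshold between donors is given beside the share of all genes that did, and not read. Other genes of their pathways are tested in both kinds of comparison.

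A clone is made by placing the nucleus of a somatic cell in an oocyte whose own nucleus was removed, and the embryo then has to silence the program of the donor cell and start that of a blastocyst. Some donor genes keep the chromatin state they had and come on too weakly, too strongly or in the wrong embryo, and trichostatin A, which blocks histone deacetylases, is used to loosen that state. The genes here belong to programs that a blastocyst is not known for: blood clotting, drug metabolism, natural killer cell recognition, inhibitory synapses, muscle structure and antiviral defence.

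The study measured 33 single blastocysts of (C57BL/6NxDBA/2)F1 background on 1-colour Agilent arrays, after 2 rounds of linear amplification of each embryo's RNA. The males were clones of adult Purkinje cells (n = 4), adult CA1 pyramidal cells (n = 4) and neonatal Sertoli cells (n = 4), set against male IVF blastocysts (n = 7). The females were clones of adult Purkinje cells (n = 4), adult CA1 pyramidal cells (n = 4) and adult cumulus cells (n = 3), set against female IVF blastocysts (n = 3). All clones received 50 nM trichostatin A, for 1 h at activation, 5 h alongside cytochalasin B at 5 µg/mL and 2 h afterwards, and all embryos were cultured for 96 h. Arrays of IVF embryos and cumulus clones stem from earlier work. Sertoli clones were male only and cumulus clones female only, so a donor could be compared across both sexes for the neurons alone. How many animals or sessions stood behind a group is not in the labels, so the p-values measure the spread between these embryos, which may be technical.

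A level below is log2 of a probe's processed signal over the 75th percentile of its array, so that 0 is the brightness of that percentile, and -3.43 is the floor below which no signal was read. The 75th percentile itself spanned 229.7 to 838 over the 8 Purkinje clones, against 904 to 1466 over every other embryo. Each clone group lay on a slide of its own, and the 2 Purkinje slides shared 1 scan day, as did the 2 CA1 slides. Donor, slide and scan day therefore cannot be told apart, and neither can sex and slide within 1 donor. The IVF and cumulus arrays were read with another scanner and software version than the neuronal and Sertoli arrays. For every gene below, that change cannot be told apart from cloning where neuronal or Sertoli clones are set beside IVF embryos. Nor can it be told apart from donor where neuronal clones are set beside cumulus clones. Of the blastocyst markers, 6 of 7 of the trophectoderm list (Cdx2, Krt8 and Krt18 among them), all 4 measured of the inner cell mass list (Pou5f1, Nanog, Sox2 and Klf2) and 3 of 5 of the primitive endoderm list (Gata6, Sox17 and Pdgfra) were well above background on 33 of 33 arrays. Elf5 was so on 32, Sox7 on 22 and Gata4 on 17. Because each sample was a whole embryo, fewer cells of a type and less RNA per cell cannot be told apart.

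Some trophectoderm markers differed between the groups described here. By limma 3 of 7 were higher in Purkinje than CA1 clones in males (Gata3 by 1.53, Tfap2c by 1.37 and Krt18 by 0.66) and 1 in females (Krt18 by 0.96), and none was lower. Of all genes tested, 18.6% passed an adjusted p under 0.05 in males and 11.0% in females, in either direction. Against Sertoli clones 4 of 7 were higher in Purkinje clones, where 4.85% of all genes passed. Against cumulus clones it was 2 of 7, where 18.7% of all genes passed. Tfap2c of the trophectoderm (-1.04, limma adjusted p = 0.01196) and Gata6 of the primitive endoderm (-0.78, limma adjusted p = 0.01213) were lower in male than in female CA1 clones. Between male and female CA1 clones 10.5% of all genes passed. The part of these markers in the results below was not tested.

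Purkinje and CA1 are the only donors present in both sexes. The difference of means, Purkinje minus CA1, had the same sign in both sexes for 6 genes (F9, Fgl1, Glrb, Klra7, Nat2 and Nexn) and opposite signs for 4 (Hic1, Oas3, Parm1 and Trim45). The share of all genes with the same sign was not counted, so these counts are a description and are not read. In males the differences of Nexn, Klra7 and Nat2 (0.12, 0.68 and 0.81) were smaller than their SE (0.80, 0.94 and 0.90). Some of these signs depend on the processing or on 1 embryo. For Nexn the difference was 0.12 in males and 0.42 in females, but -0.02 and -0.12 with array median scaling. In males it was -0.27 with the signal floored at 1 and -0.27 with the authors' deposited values. For Klra7 in males it was -0.07 without male CA1 replicate 2, against 0.68 with it. Several signs also rest on dim arrays. Leaving out the 5 Purkinje arrays with a 75th percentile below 500 leaves 2 male Purkinje clones and 1 female one, so the female values are then those of 1 embryo. The difference in males was then -0.32 for Nat2, -0.47 for Klra7 and -0.79 for Nexn, and in females -0.84 for Fgl1, -0.31 for Oas3 and -0.01 for Hic1, each with its sign turned. The other 4 genes had the signs they had before, Glrb at 1.11 in males and 0.47 in females, where its 1 female Purkinje clone lay inside the range of the CA1 clones.

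The number of members past an adjusted p under 0.05 in limma, here called, is given for the donor contrasts as a count only, because the members were chosen on them. Between Purkinje and CA1 clones it was 5 of 10 in males (18.6% of all genes tested) and 4 in females (11.0%). In males it was 4 between Purkinje and Sertoli clones (4.85% of all genes) and 4 between CA1 and Sertoli clones (11.9%). In females it was 4 between Purkinje and cumulus clones (18.7%) and 2 between CA1 and cumulus clones (19.4%). Called in both sexes in the same direction between Purkinje and CA1 clones was F9, as were 4.29% of all genes, and in opposite directions Trim45, as were 0.274%. F9 was not called in males in 4 of 20 alternatives (only the groups compared, without Purkinje replicate 3, without Purkinje replicate 4, and without the dim arrays) and in females in 1 of 20 (without the dim arrays). Trim45 was not called in females in 9 of 20.

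**Figure D1:**
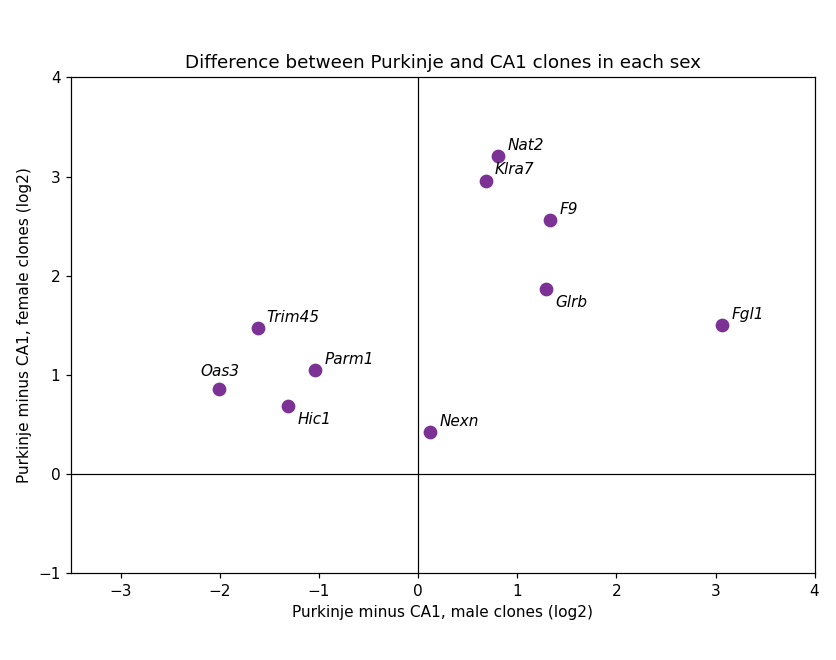
Difference of mean log2 levels, Purkinje minus CA1 clones, in male embryos (x axis) and female embryos (y axis), 1 point for each gene. F9, Fgl1, Glrb, Klra7, Nat2 and Nexn lie above 0 on both axes, with Nat2 at 0.81 in males and 3.21 in females and Fgl1 at 3.07 in males and 1.50 in females, while Trim45, Oas3, Parm1 and Hic1 lie left of 0 in males and above 0 in females.

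**Figure D2:**
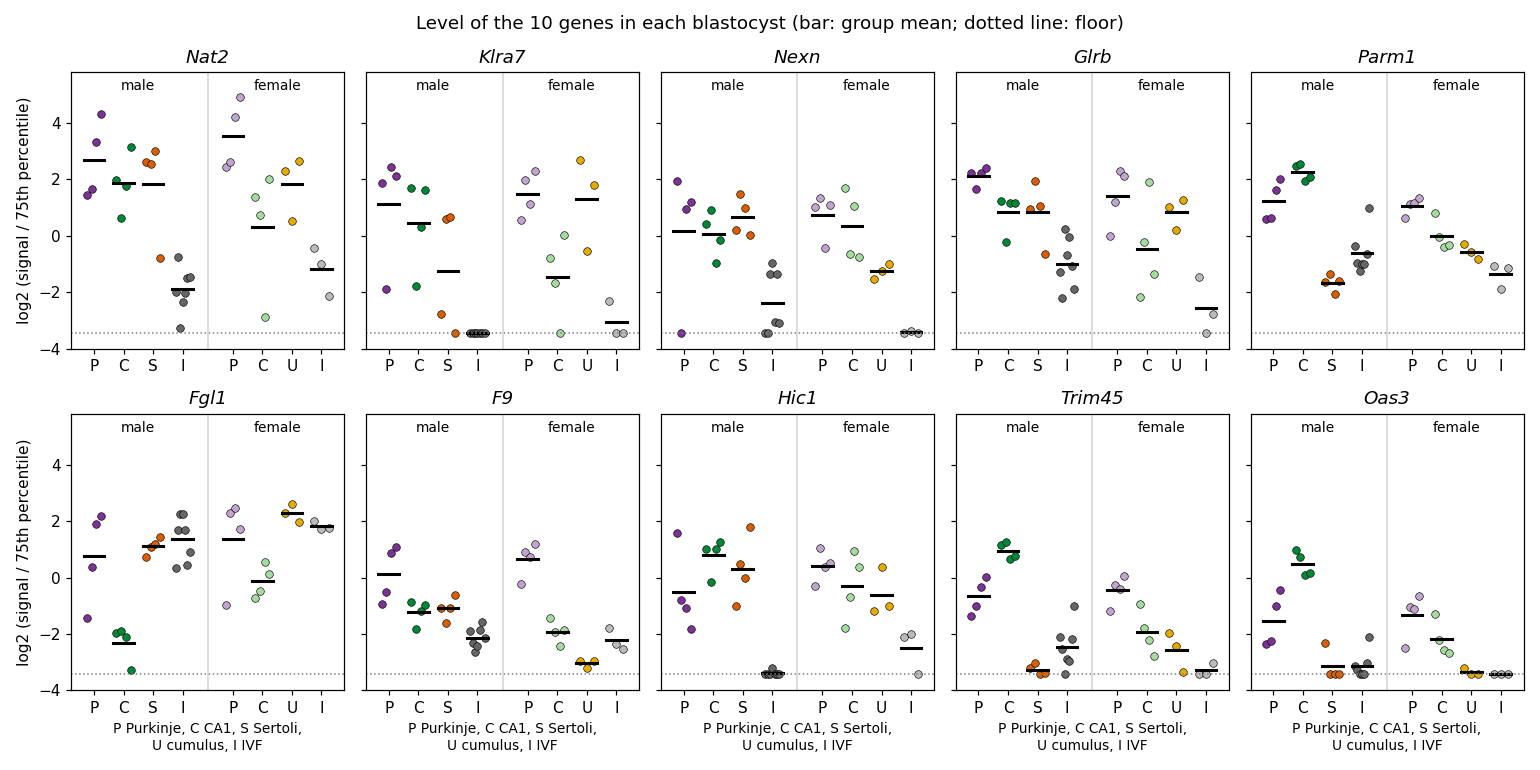
Level of each gene in each blastocyst (y axis, log2 of signal over the 75th percentile of the array) by donor and sex; points are single embryos, bars group means, and the dotted line the floor of -3.43. Hic1 stands above every IVF embryo of the same sex in all 6 clone groups, F9 is highest in Purkinje clones, and Parm1, Trim45 and Oas3 share 1 pattern with its top in male CA1 clones.

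F9 encodes clotting factor IX, a vitamin K-dependent protease that the liver secretes into blood, and it is the only X-linked gene of the 10. Its level was -0.94, -0.53, 0.86 and 1.08 in male Purkinje clones, against -0.87, -1.83, -1.19 and -0.98 in male CA1 clones, and it was -1.08, -1.60, -1.09 and -0.61 in Sertoli clones. In females it was -0.22, 0.92, 0.71 and 1.18 in Purkinje clones, against -1.44, -1.94, -2.42 and -1.85 in CA1 clones, and -2.96, -3.20 and -2.95 in cumulus clones. The female Purkinje and CA1 groups do not overlap, and in males Purkinje replicates 2, 3 and 4 stand above every CA1 clone while replicate 1 lies among them. IVF embryos were low in both sexes, at -2.65, -2.15 and -1.59 in males (lowest, median and highest of 7) and at -1.80, -2.35 and -2.54 in females. Every Purkinje clone thus lay above every IVF embryo of its sex, by a mean log2 of 2.25 in males and 2.87 in females, and every cumulus clone lay below every female IVF embryo.

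The brightness of the array moves with the F9 result. Before scaling, the F9 signal of male embryos, at 344 to 667 in Purkinje and 262 to 602 in CA1 clones, overlapped. That of female embryos, at 668 to 972 in Purkinje and 275 to 392 in CA1 clones, did not. Without the 5 dimmest Purkinje arrays (75th percentile under 500), which leaves 2 male and 1 female Purkinje clone, the difference between Purkinje and CA1 clones was 0.48 in males and 1.69 in females, against 1.33 and 2.56 with them. The part of array brightness in these values was not tested.

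Fgl1 encodes fibrinogen-like protein 1, which the liver secretes and which is also a ligand of the immune checkpoint receptor LAG3. It was low in CA1 clones and bright in IVF embryos. In males it was -1.96, -1.88, -2.12 and -3.28 in CA1 clones, against 0.32, 1.67 and 2.25 (lowest, median and highest of 7) in IVF embryos. In females it was -0.72, -0.48, 0.56 and 0.12 in CA1 clones, against 2.01, 1.71 and 1.75 in IVF embryos. Every CA1 clone lay below every IVF embryo of its sex, with a mean difference of -3.67 in males and -1.95 in females. The other donors overlapped the IVF embryos, and every male Purkinje clone lay above every male CA1 clone. Sertoli clones had 0.73, 1.08, 1.17 and 1.43, cumulus clones 2.29, 2.59 and 1.97, and Purkinje clones -1.44, 0.37, 1.91 and 2.19 in males and -0.97, 2.28, 2.45 and 1.71 in females. Replicate 1 of the Purkinje clones was the lowest of its group in both sexes, and those 2 embryos had the brightest arrays of their groups (75th percentile of 659 and 838).

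Nat2, an arylamine N-acetyltransferase that conjugates aromatic amines and drugs, was high in most clones. Its level was 1.45, 1.65, 3.31 and 4.32 in male Purkinje clones, 1.98, 0.61, 1.76 and 3.13 in male CA1 clones and 2.60, 2.53, 3.00 and -0.78 in Sertoli clones, against -3.25, -1.99 and -0.76 (lowest, median and highest of 7) in male IVF embryos. Sertoli replicate 4 was the 1 male clone that overlapped the IVF embryos, just under the highest of them. In females it was 2.42, 2.61, 4.19 and 4.91 in Purkinje clones, 1.38, 0.74, -2.87 and 2.02 in CA1 clones and 2.29, 0.51 and 2.64 in cumulus clones, against -0.45, -0.99 and -2.14 in IVF embryos. CA1 replicate 3 was the 1 female clone that did not lie above the IVF embryos. The mean difference from IVF was 4.59 for male and 4.72 for female Purkinje clones, 24.0-fold and 26.4-fold on the linear scale, and 1.51 for female CA1 clones. Between neighbours in the order of the 8 group means, no gap was wider than the larger SD of the pair.

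Klra7 encodes a Ly49 receptor, by which mouse natural killer cells sense MHC class I. It was 1.86, -1.90, 2.44 and 2.10 in male Purkinje clones, 1.68, -1.79, 0.30 and 1.62 in male CA1 clones and -2.77, 0.58, 0.65 and -3.43 in Sertoli clones, while all 7 male IVF embryos were on the floor. The mean fold over IVF was at least 23.5 for male Purkinje and at least 14.7 for male CA1 clones. In females it was 0.56, 1.98, 1.13 and 2.29 in Purkinje clones, -0.78, -1.69, -3.43 and 0.02 in CA1 clones and 2.67, -0.55 and 1.80 in cumulus clones, against -2.30 and 2 embryos on the floor in IVF. Single embryos of 1 donor were far apart, with an SD of 2.03 in male Purkinje and 2.16 in Sertoli clones, and male donors overlapped. Of the natural killer and T cell markers listed, Ptprc, Klrd1, Klrk1 and Ncr1 were not above background in enough arrays to be tested, and Cd3e and Nkg7 stayed at or below -2.56 and -1.87. Ly49 genes are near-identical, and the 3 other genes most like Klra7 over the 33 arrays were Klra20 (r = 0.99), Klra16 (r = 0.98) and Klra1 (r = 0.97), so which Ly49 gene was read is uncertain.

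Glrb encodes the beta subunit of the glycine receptor, which ties the channel to gephyrin at inhibitory synapses. It was 2.23, 1.65, 2.21 and 2.40 in male Purkinje clones, 1.22, -0.23, 1.15 and 1.17 in male CA1 clones and 0.95, 1.93, 1.06 and -0.64 in Sertoli clones, against -2.21, -1.07 and 0.25 (lowest, median and highest of 7) in male IVF embryos. The male Purkinje clones lay above every CA1 clone and every IVF embryo and overlapped the Sertoli clones. In females it was 0.00, 1.19, 2.29 and 2.13 in Purkinje clones, -2.17, -0.24, 1.89 and -1.34 in CA1 clones and 1.03, 0.20 and 1.28 in cumulus clones, against -1.47, -3.43 and -2.77 in IVF embryos. Purkinje and cumulus clones stood above all 3 female IVF embryos, and the CA1 clones overlapped them.

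Nexn encodes nexilin, an actin-binding protein of the Z-disc of striated muscle. Its means ran from 0.05 to 0.75 in the Purkinje, CA1 and Sertoli clones of both sexes, against -2.39 ± 1.10 (SD, n = 7) in male and -3.41 in female IVF embryos, where 2 of 3 were on the floor. Cumulus clones stood between them at -1.54, -1.24 and -1.01. Male Purkinje replicate 2 was on the floor while the other 3 clones of that group were at 0.96 to 1.95, and this 1 embryo gave the group an SD of 2.44. The difference between Purkinje and CA1 clones in males was 0.12, and 1.32 without it.

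Hic1 encodes a zinc finger repressor that restrains growth and that is often silenced by promoter methylation in tumours. In scaled level every clone lay above every IVF embryo of its sex in all 6 clone groups. Before scaling, male Purkinje replicate 4 had a signal of 65.4, inside the male IVF range of 13.2 to 110.6. Its array had a 75th percentile of 229.7. Female CA1 replicate 1 had a signal of 302.4, inside the female IVF range of 7.1 to 329.6. The part of array brightness in these values was not tested. Levels were 1.58, -0.81, -1.07 and -1.81 in male Purkinje clones, 1.02, -0.17, 1.01 and 1.26 in male CA1 clones and -1.02, 0.49, 0.00 and 1.79 in Sertoli clones, against a male IVF range of -3.43 to -3.19. Female levels were -0.30, 1.03, 0.37 and 0.51 in Purkinje clones, -1.77, -0.69, 0.93 and 0.37 in CA1 clones and -1.17, 0.36 and -1.01 in cumulus clones, against -2.10, -2.01 and -3.43 in IVF embryos. The mean difference from IVF was widest in male CA1 clones, at 4.17, and narrowest in cumulus clones, at 1.91. The donors overlapped one another. For the neuronal and Sertoli clones, cloning cannot be told apart from the change of scanner and software between the earlier and the present arrays. The cumulus arrays share both with the IVF arrays.

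Parm1, Trim45 and Oas3 varied together. Parm1 encodes a mucin-like membrane protein, Trim45 a tripartite motif protein with a filamin domain, and Oas3 a 2'-5' oligoadenylate synthetase, which in infected cells senses double-stranded RNA and is induced by interferon. Over the 33 arrays their levels correlated at r = 0.98 (Parm1 and Trim45), 0.95 (Trim45 and Oas3) and 0.92 (Parm1 and Oas3). After the group means were removed r was 0.90, 0.80 and 0.80, so single embryos within a group also went together. The 3 genes share array, slide and scaling, and these values are descriptions. Parm1 and Oas3 lie on chromosome 5 and Trim45 on chromosome 3.

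Since these 3 varied together, their promoters are shown, as the 300 bases around each annotated start in RefSeq (GRCm38.p6), 5′ to 3′ on the strand of the gene, with CpG dinucleotides, the sites of DNA methylation, in capitals. They are at chr5:91517450-91517749 (plus strand) for Parm1, chr3:100922243-100922542 (plus strand) for Trim45 and chr5:120777610-120777909 (minus strand) for Oas3. RefSeq promoters were at hand for 7 of the 10 genes.
Parm1: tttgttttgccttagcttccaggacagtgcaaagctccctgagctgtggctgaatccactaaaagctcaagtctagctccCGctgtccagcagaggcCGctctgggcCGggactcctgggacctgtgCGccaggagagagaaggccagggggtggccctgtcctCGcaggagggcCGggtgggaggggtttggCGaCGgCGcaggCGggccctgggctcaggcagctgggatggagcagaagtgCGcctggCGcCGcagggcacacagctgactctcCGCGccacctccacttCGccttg
Trim45: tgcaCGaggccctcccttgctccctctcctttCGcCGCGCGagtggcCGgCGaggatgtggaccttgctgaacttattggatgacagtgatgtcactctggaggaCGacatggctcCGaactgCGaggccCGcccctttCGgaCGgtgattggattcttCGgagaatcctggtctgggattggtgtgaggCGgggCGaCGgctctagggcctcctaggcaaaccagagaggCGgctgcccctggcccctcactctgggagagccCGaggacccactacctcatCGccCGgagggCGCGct
Oas3: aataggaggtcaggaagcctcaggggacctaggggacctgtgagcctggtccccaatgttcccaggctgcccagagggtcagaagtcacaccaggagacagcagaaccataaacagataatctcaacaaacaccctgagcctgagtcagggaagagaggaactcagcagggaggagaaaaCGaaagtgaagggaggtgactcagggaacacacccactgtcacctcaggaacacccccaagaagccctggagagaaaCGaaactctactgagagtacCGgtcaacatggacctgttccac
The 3 sequences differ in kind. Parm1 holds 16 CpG and Trim45 23, while Oas3 holds 3, and the median of 32851 mouse promoter windows was 7. The core of the interferon-stimulated response element, GAAA, any 2 bases and GAAA, searched on both strands, occurs once in the Oas3 window, as GAAAACGAAA, and in neither of the others; 3.4% of all windows hold it. The match takes in 1 of the 3 CpG. The letters TATAAA, searched on both strands, are in none of the 3 and in 13.6% of all windows. These letters are a description and say nothing about binding.

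All 3 genes were highest in male CA1 clones. Parm1 was at 0.60, 0.63, 1.61 and 2.02 in male Purkinje clones, 2.45, 2.54, 1.94 and 2.09 in male CA1 clones and -1.65, -1.35, -2.06 and -1.62 in Sertoli clones, against -1.24, -0.97 and 0.97 (lowest, median and highest of 7) in male IVF embryos. Trim45 was at -1.36, -1.02, -0.34 and 0.03 in male Purkinje clones, 1.16, 1.24, 0.66 and 0.75 in male CA1 clones and -3.22, -3.01, -3.43 and -3.39 in Sertoli clones, against -3.43, -2.53 and -1.02 in male IVF embryos. Oas3 was at -2.37, -2.25, -1.02 and -0.45 in male Purkinje clones, 0.97, 0.74, 0.08 and 0.17 in male CA1 clones, -2.31 in Sertoli replicate 1 and the floor in the 3 other Sertoli clones, against -3.43, -3.28 and -2.11 in male IVF embryos. Male CA1 clones stood above every other male embryo for Trim45 and Oas3, and for Parm1 overlapped Purkinje replicate 4 alone. Sertoli clones lay below every male IVF embryo for Parm1. Male IVF replicate 7 was the highest of its group for all 3 genes.

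Female CA1 clones did not share the high level. Parm1 was at 0.61, 1.11, 1.16 and 1.33 in female Purkinje clones, 0.79, -0.06, -0.40 and -0.32 in female CA1 clones and -0.29, -0.59 and -0.84 in cumulus clones, against -1.07, -1.88 and -1.13 in female IVF embryos. Trim45 was at -1.19, -0.28, -0.39 and 0.04 in female Purkinje clones, -0.94, -1.78, -2.22 and -2.78 in female CA1 clones and -1.95, -2.41 and -3.35 in cumulus clones, against -3.40, -3.43 and -3.02 in female IVF embryos. Oas3 was at -2.49, -1.03, -1.10 and -0.67 in female Purkinje clones, -1.30, -2.21, -2.56 and -2.66 in female CA1 clones and -3.21 with 2 on the floor in cumulus clones, while all female IVF embryos were on the floor. For each of the 3, Purkinje means were above CA1 means in females and below them in males, and replicate 1 was the highest of the female CA1 clones.

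The choice of genes did not name the comparison of males with females, but the levels of the same embryos enter it. Its counts and p-values are therefore not independent of the choice and are given as a description. A linear model of the 8 group means was fitted to all 15676 genes with limma and adjusted by Benjamini-Hochberg, with calls made as above. Between male and female CA1 clones 4 of the 10 genes were called, where 10.5% of all genes tested were. Trim45 was higher in males by a log2 of 2.88 ± 0.41 (SE; 7.37-fold, limma adjusted p = 4.242e-05), Oas3 by 2.67 ± 0.40 (adjusted p = 8.013e-05) and Parm1 by 2.26 ± 0.37 (adjusted p = 0.0002067), each higher in all 4 males than in any of the 4 females. These 3 calls were kept under all 17 alternatives run for each. Fgl1 was lower in males by the limma fit, with a difference of -2.18 ± 0.64 (adjusted p = 0.02842), also without overlap of the groups. Its limma adjusted p was 0.1166, 0.0821 and 0.06377 without male CA1 replicate 4, female CA1 replicate 3 or female CA1 replicate 4, 0.05259 with a doubled floor and 0.06246 with no filter on dim probes, so the call was lost in 5 of 17 alternatives.

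None of the 10 was called between male and female IVF embryos by limma, where 0.434% of all genes were, and 3 of the 10 had an unadjusted p under 0.05. None was called between male and female Purkinje clones, where 0.147% of all genes were, and 0 of the 10 had an unadjusted p under 0.05. These misses do not show equal levels: the 95% interval of the male minus female difference in Purkinje clones was -1.02 to 0.63 for Oas3 and -2.70 to 1.00 for Nat2. A single slide held both sexes of IVF embryos, 1 male and 3 females. The difference there was 0.36 for Parm1, 0.32 for Trim45 and 0.00 for Oas3. For Oas3 all of these embryos were on the floor, so no difference could appear. Over the 10 genes it ran from -0.92 for Hic1 to 2.50 for Glrb.

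Whether the donor difference itself depended on sex was examined as Purkinje minus CA1 in males minus the same in females. This contrast is built from the donor differences on which the genes were chosen. Its count and p-values are therefore not independent of the choice and are given as a description. Of the 10 genes 3 passed, where 2.18% of all genes did: Trim45 with -3.10 ± 0.58 (SE, limma adjusted p = 0.002823), Oas3 with -2.87 ± 0.57 (adjusted p = 0.004824) and Parm1 with -2.09 ± 0.52 (adjusted p = 0.02881). F9, with -1.22 ± 0.51, was not called (adjusted p = 0.2236), nor was Fgl1 with 1.57 ± 0.91 (adjusted p = 0.4315). Without the 5 dimmest Purkinje arrays the adjusted p was 0.1345 for Trim45, 0.07082 for Oas3 and 0.2063 for Parm1, at differences of -2.88, -2.49 and -2.25. With normexp background the limma value for Oas3 was -2.05 (adjusted p = 0.1883), and the call on Parm1 was lost in 10 of 26 alternatives.

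**Figure D3:**
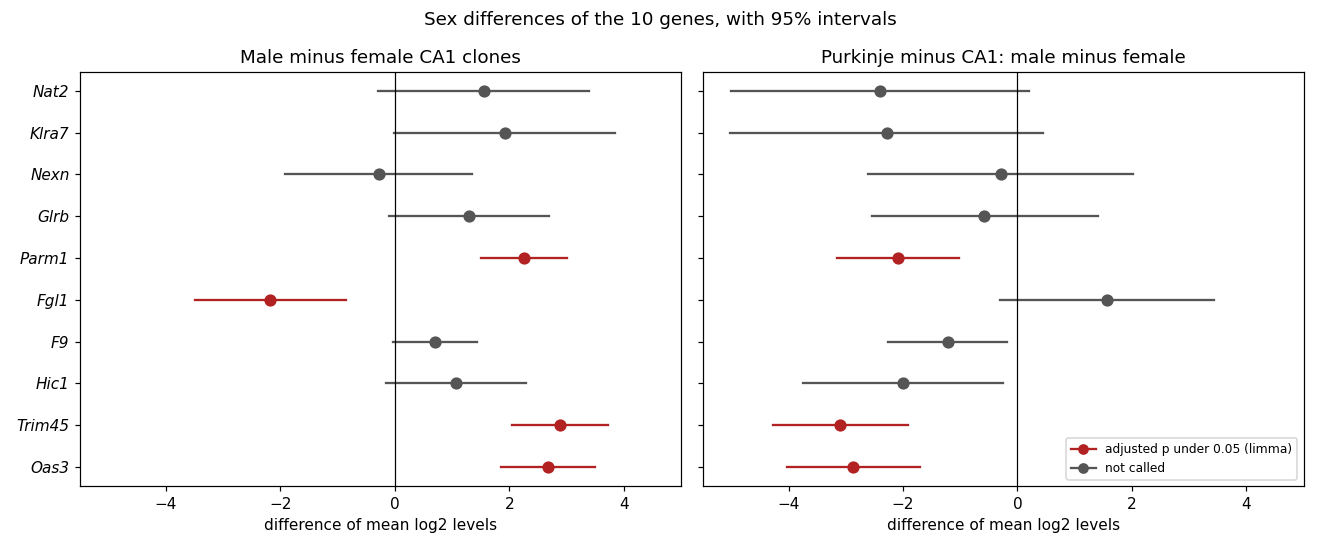
Difference of mean log2 levels with its 95% interval for each gene (rows): male minus female CA1 clones on the left, and the Purkinje minus CA1 difference in males minus that in females on the right; red marks an adjusted p under 0.05 from limma. Trim45, Oas3 and Parm1 are red in both panels, and Fgl1 on the left with -2.18.

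The unscaled signals of these 3 genes were set beside the array brightness. In male CA1 clones the processed signal of Parm1 was 4750 to 6009, against 1114 to 1775 in female CA1 clones, at 75th percentiles of 930.0 to 1236 and 1030 to 1466. In the 8 Purkinje clones of both sexes it was 763 to 1277, the highest over the lowest being 1.67, while the 75th percentile by which it was divided varied 3.65-fold. Among Purkinje clones the divisor thus varied more than the signal. The unscaled Trim45 signal was 235 to 441 in Purkinje clones against 206 to 536 in female CA1 clones, and that of Oas3 was 127 to 271 in Purkinje clones against 224 to 417 in female CA1 clones. For all 3 genes female Purkinje clones had the higher mean scaled level and overlapped female CA1 clones in unscaled signal. Male CA1 clones were above all other neuronal clones in the unscaled signal of each gene.

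**Figure D4:**
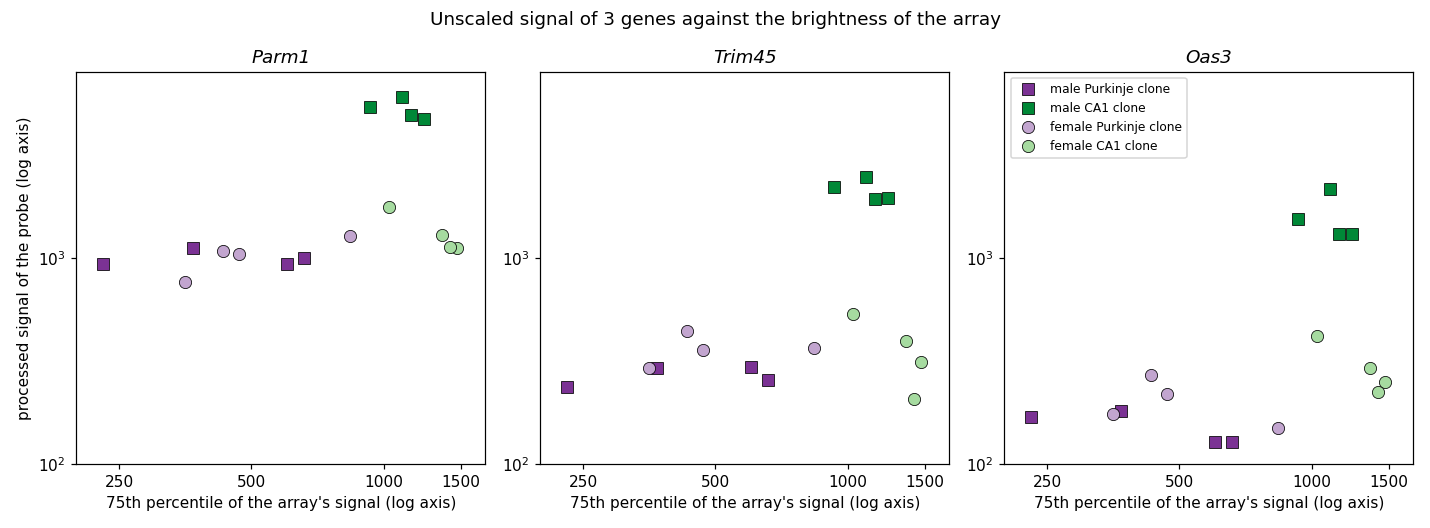
Processed signal of Parm1, Trim45 and Oas3 before scaling (y axes, log) against the 75th percentile of the same array (x axes, log) in the 16 Purkinje and CA1 clones. The 4 male CA1 clones stand apart at the top of each panel, and the Purkinje clones lie in a flat band over a 3.65-fold range of array brightness.

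Of the 10 genes 6 were read by a pair of probes, and these disagreed. The other probe of F9 and that of Oas3 were on the floor on 33 of 33 arrays, those of Parm1 and Fgl1 on 32 of 33 and that of Nexn on 31 of 32. Their signals did not exceed 55.1 for F9, 28.9 for Oas3, 147.4 for Fgl1, 154.5 for Parm1 and 117.1 for Nexn, so for these 5 genes every level above rests on 1 probe. For Fgl1 the bright probe was tied to the gene by its name only, and the dim one by a RefSeq transcript; for Nexn the bright one was tied by transcript. The other Trim45 probe was on the floor on 4 of 33 arrays. It had -0.95, -0.83, -2.18 and -1.85 in male CA1 clones, against -3.00, -1.79, -3.36 and -2.59 in female CA1 clones, groups that overlap, with a difference of 1.23 (exact permutation test, two-sided p = 0.0857, the smallest possible being 0.0286). By that probe Purkinje minus CA1 was -0.54 in males and 0.14 in females, against -1.62 and 1.47 by the brighter one.

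**Figure D5:**
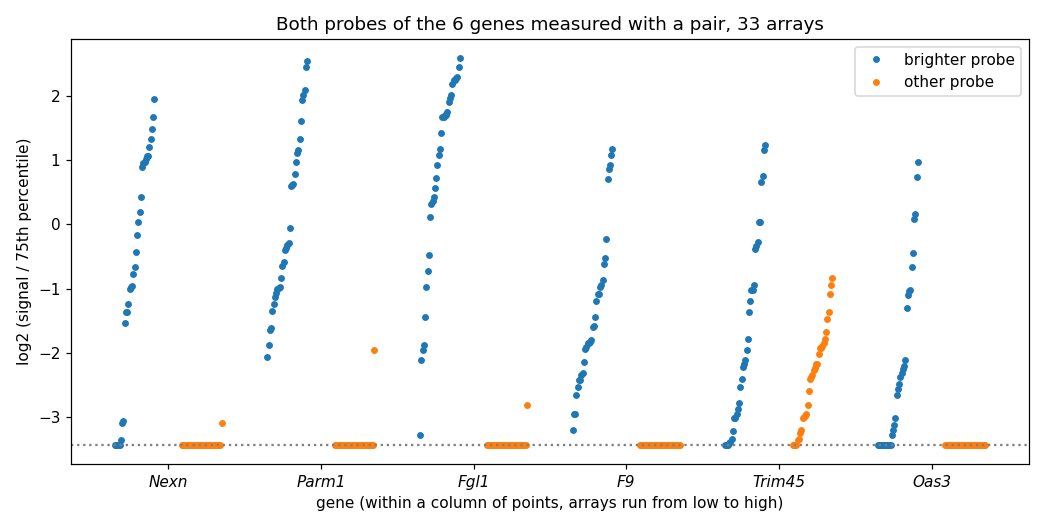
Levels of both probes of the 6 genes with a pair of them (y axis, log2 of signal over the 75th percentile), each point 1 array, with arrays ordered from low to high within a probe. The brighter probes spread over several log2 units, while the other probes of Nexn, Parm1, Fgl1, F9 and Oas3 lie on the floor of -3.43 on nearly all arrays and that of Trim45 reaches -0.83.

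The genes whose level was most like that of each member over the 33 arrays were taken by Pearson's r among all other genes tested. Nat2 was most like Nat1 (r = 0.93), its neighbour in the same enzyme family and on the same chromosome 8. Parm1 and Trim45 shared all 3 of their nearest genes, D830039M14Rik, AK040490 and Try5 (r from 0.97 to 0.98), and Oas3 was nearest to Smim23 (r = 0.98), Try5 and Pnmal1 (r = 0.96 each). Fgl1 went with Dcaf12l2 (r = 0.99) and Itgb3 (r = 0.97), and F9 with Acr (r = 0.93), Rpl7a and Olfr1143 (r = 0.92 each), Acr being a protease of the sperm acrosome and Olfr1143 an odorant receptor. Glrb, Nexn and Hic1 had looser neighbours, at 0.81, 0.87 and 0.88 at most. These likenesses are descriptions over arrays that share slides and scaling.

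Other genes of the members' pathways come from lists drawn up beside the 10 genes. No list was tested as a set. Of 27 interferon response genes listed 16 were tested. The list had 1 gene higher and 1 lower in male than female CA1 clones, where 10.5% of all genes tested were called. Between male and female CA1 clones Oas3 was the only one higher, and Trim25, a ubiquitin ligase of the RIG-I pathway, was lower in males by limma, with a difference of -1.12 (adjusted p = 0.01006); the median over the 16 was 0.00, as it was over all genes. In the interaction 1 of the 16 was higher and 1 lower, where 2.18% of all genes were called. There Trim25 was called the other way to Oas3, at 1.50 (limma adjusted p = 0.03923). Between Purkinje and CA1 clones 1 of the 16 was higher and 2 lower in Purkinje clones in males, where 18.6% of all genes were called. In females 0 were higher and 2 lower, where 11.0% of all genes were called. Stat2, a transcription factor of the type I interferon response, was lower in Purkinje clones by limma in males (-1.67, adjusted p = 0.006247) and in females (-1.46, adjusted p = 0.02241). Oas1c, another oligoadenylate synthetase gene, was lower in Purkinje clones in females (-2.51, limma adjusted p = 0.007985), and Trim25 was higher in males (1.00, limma adjusted p = 0.01314). Of 14 tested genes of the coagulation and fibrinogen list, Vkorc1, which recycles vitamin K, was higher in male than female CA1 clones by limma (0.83, adjusted p = 0.01728), and Fgl1 lower. No other gene of that list was called there, where 10.5% of all genes were. In females 2 of the 14 were higher in Purkinje than CA1 clones and 0 lower, where 11.0% of all genes were called. F8, the cofactor of factor IX, was among the higher ones (1.37, limma adjusted p = 0.02025). In males 2 of the 14 were higher in Purkinje than CA1 clones and 1 lower, where 18.6% of all genes were called. The lower one was Vwf, the carrier of that cofactor in blood (-2.94, limma adjusted p = 0.01195). The liver genes Alb, Afp, Apoa2, Apoa4, Apob, Ttr and Rbp4 were not above background in enough arrays to be tested, while Apoa1 was above background on all 33 arrays and never over -0.57.

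The smaller lists gave few calls between male and female CA1 clones by limma, where 10.5% of all genes tested were called. Trim45 was called among the 3 tested of 4 filamin-domain TRIM proteins. In the other lists the count called was 0, with the count at an unadjusted p under 0.05 given beside it: 0 of 3 arylamine N-acetyltransferases, 1 of the 2 tested members of the Ly49 list, 0 of 3 tested genes of the glycine receptor and gephyrin list, 3 of 14 actin and Z-disc genes and 2 of 8 HIC1 partners and targets. On the Ly49 list, which does not hold Klra16 and Klra20, Klra1 was higher in Purkinje than CA1 clones in females by 3.11, beside 2.96 for Klra7. Defining genes of the donor cells were largely below the test's filter: Calb1 of Purkinje cells, Neurod6 and Fibcd1 of CA1 cells, Sox9, Amh and Wt1 of Sertoli cells and Has2, Ptx3 and Cyp19a1 of cumulus cells were not above background in enough arrays to be tested. Pcp2 of Purkinje cells was above background on 33 of 33 arrays, IVF embryos included.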

How the data were processed

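RNA of 33 single blastocysts was read on 1-colour Agilent arrays. The deposited scanner files give each spot's intensity, per the file headers the processed signal of Agilent Feature Extraction (versions 9.5.3.1 for the earlier and 10.5.1.1 for the present arrays), already background-corrected. The authors' deposited table of log2 values, used as an alternative only, was matched from the values: log2 signal, floored at 1, over the 75th percentile and centred on each probe's median within a sex gave a median absolute difference of 0.0123 in males and 0.00514 in females. Its column medians were -0.59 to 0.66 in males and -0.59 to 0.77 in females.

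Each array was divided by its 75th percentile, values under 0.0929 of it were set to that floor (19.9% of the values of tested genes), and log2 was taken. Probes well above background on at least 50% of the arrays of a group, with at least 3 arrays above the floor, were kept (22789), and the brightest stood for its gene. Probe names came from RefSeq (27976 by accession, 3885 by symbol, 1622 by synonym), or else the file (7691). With limma 3.58.1, 15676 genes were fitted by a mean for each of 8 groups in R 4.3.3, and p-values were adjusted by Benjamini-Hochberg. In a test on simulated data for Purkinje minus CA1 in males, over 15676 genes, 34% of log2 changes of 1 and 84% of changes of 2 were recovered, with 7 false calls.

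The 10 members and all gene lists were chosen with earlier results of these data known. The genes named are the members, the 3 genes most like each, and list genes called or defining a cell type. The number of arrays limits the precision. The normexp alternative used the median signal, in place of the mean, for the present arrays. Other scalings, floors, filters, probe rules, designs and left-out arrays were tried as alternatives.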

Additional observations from a re-analysis of the deposited data

Results flagged for a closer look

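Of 59 groups of 4 to 10 embryos tested over the 10 genes, 7 held an embryo whose gap to the next passed Dixon's 95% critical value. For values without ties chance passes about 1 group in 20. That rate does not hold for groups with several embryos tied on the floor. Oas3 in Sertoli clones and Hic1 and Oas3 in male IVF embryos are such groups, so the count is not set against it. Nat2 was -0.78 in Sertoli replicate 4, below the other 3. Klra7 was -1.90 in male Purkinje replicate 2 and Glrb -0.23 in male CA1 replicate 2, each the lowest of its group. Oas3 was -2.31 in Sertoli replicate 1, the 1 Sertoli clone above the floor. Male IVF replicate 7 was high for Parm1 (0.97) and Oas3 (-2.11), and male IVF replicate 4 for Hic1 (-3.19), just above the floor.

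The difference between Purkinje and CA1 clones itself differed between the sexes by limma for Trim45 (-3.10, adjusted p = 0.002823), Oas3 (-2.87, adjusted p = 0.004824) and Parm1 (-2.09, adjusted p = 0.02881). The genes were chosen on the donor differences that make up this contrast, so these values are not independent of the choice.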

How the results depend on the processing

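Of the 10 genes, the number called by limma between CA1 and cumulus clones was 2, and 1 with a doubled floor, with no filter on dim probes, with the replicate block or with the slide as a random block. Between Purkinje and CA1 clones in females it was 4, and 2 with array median scaling, 1 with normexp, 1 with only the groups compared in the fit and 0 without the 5 Purkinje arrays under 500. In males it was 5, and 2 with only the groups compared and 3 without those arrays. For the interaction it was 3, and 1 with normexp and 0 without those arrays. Between Purkinje and Sertoli clones it was 4, and 2 with a doubled floor, with only the groups compared or without those arrays, and between Purkinje and cumulus clones 4, and 2 without those arrays. Leaving out 1 embryo at a time gave 0 to 4 for CA1 against cumulus, 1 to 8 for Purkinje against CA1 in females (8 without female Purkinje replicate 1), 3 to 5 in males, 2 to 4 for the interaction, 2 to 5 for Purkinje against Sertoli, 3 to 4 for male against female CA1 clones, and 4 throughout for CA1 against Sertoli and Purkinje against cumulus. Apart from the fits with fewer samples, the cause was not tested. Same-numbered embryos correlated at -0.24 to 0.31, so they share only a number, and the replicate block moved no other count.

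Of 1160 values of single genes in donor contrasts under an alternative, 42 moved by more than the spread between replicates; of the 448 whose gene was called, 92 lost the call, and 20 of the other 712 gained one. Of 810 values in the comparisons of males with females, 18 of 146 lost a call and 2 of 664 gained one. Over both kinds 55 of 1970 values had the other sign. Over all genes, male against female CA1 clones gave 1652 calls, 300 with normexp and 3063 with array median scaling, and the interaction 342, 12 and 533. With array median scaling the median difference of all genes ran from -0.38 to 0.33 over the contrasts, against 0.00 to 0.14 in the main fit. The floor limits genes with IVF embryos on it, Klra7, Nexn, Hic1 and Oas3 most (male minus female IVF for Nexn ran from 0.35 to 4.59), where differences from clones are lower bounds or depend on it.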
